A study of Mus musculus with 14 samples.

Results

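The genes described here are the 7 that encode the subunits of AMP-activated protein kinase (AMPK) and 3 kinases related to it. They are the catalytic subunits Prkaa1 (alpha1) and Prkaa2 (alpha2), the scaffold subunits Prkab1 (beta1) and Prkab2 (beta2), and the nucleotide-binding subunits Prkag1, Prkag2 and Prkag3 (gamma1, gamma2 and gamma3). The related kinases are Stk11, which encodes LKB1, the upstream kinase of AMPK, and Nuak1 and Sik1, which encode AMPK-related kinases that LKB1 also activates. All 10 genes were chosen by symbol, each was found as 1 row among 52550 genes, and all 10 passed the filter on low counts that left 11088 tested genes.

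The 14 male mice gave triceps RNA for QuantSeq FWD libraries, in which each transcript is read from its 3′ end, so that a gene's level does not scale with its length. There were 3 WT controls and 3 FLExDUX4 controls that did no wheel running, and 4 WT runners and 4 FLExDUX4 runners that had 6 weeks of voluntary wheel running. In FLExDUX4 mice Cre recombinase can switch on a human DUX4 transgene, the gene whose misexpression causes facioscapulohumeral muscular dystrophy. The labels name no Cre driver, inducing agent, age or batch, so how strongly DUX4 was expressed in these muscles was not known here. By the series title, the study asked whether aerobic exercise improves deficits of this model. Gene counts per mouse ran from 3269357 to 6995811. All 7 skeletal muscle markers (Acta1, Ckm, Des, Mb, Ttn, Neb and Pygm) were present in every group. Their summed level in CPM (read counts scaled to library size) was 90912 to 93738 in WT controls and 66348 to 88064 in WT runners. It was 75885 to 96780 in FLExDUX4 controls and 73289 to 80728 in FLExDUX4 runners. Every WT runner thus lay under every WT control in this sum, and its part in the running comparison was not tested.

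AMPK is a heterotrimer of 1 alpha, 1 beta and 1 gamma subunit that senses the energy state of the cell. When AMP or ADP replaces ATP on the gamma subunit, the threonine in the activation loop of the alpha subunit is more readily phosphorylated by LKB1 and less readily dephosphorylated, and the active kinase raises glucose and fatty acid uptake and oxidation and lowers synthesis. In skeletal muscle the heterotrimer of alpha2, beta2 and gamma3 is the one best known to respond to contraction, and gamma3 is found mainly in fast glycolytic fibres. LKB1 works in a complex with STRAD and MO25. SIK1 phosphorylates class IIa histone deacetylases and CRTC coactivators, and its gene is known as a target of cAMP signalling.

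The activation loop is what joins these kinases to LKB1, and it is shown here for the 4 substrates as 42 bases of coding sequence, 5′ to 3′, with the codon of the threonine that LKB1 phosphorylates in capitals. The sequences were read from GENCODE M21 transcripts and placed on GRCm38: Prkaa1 at chr15:5169955-5169996 on the plus strand, and on the minus strand Prkaa2 at chr4:105049354-105049395, Nuak1 at chr10:84380786-84380827 and Sik1 at chr17:31850992-31851033. Each lay within 1 coding exon. The capital codon was codon 183 of Prkaa1, 172 of Prkaa2, 212 of Nuak1 and 182 of Sik1.
Prkaa1: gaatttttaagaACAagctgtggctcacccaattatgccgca
Prkaa2: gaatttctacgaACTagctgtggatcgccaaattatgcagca
Nuak1: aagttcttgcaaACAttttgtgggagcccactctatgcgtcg
Sik1: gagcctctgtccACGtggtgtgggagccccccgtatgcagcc
The windows of Prkaa1 and Prkaa2 were identical at 35 of 42 bases. All other pairs shared 22 to 25 of 42. Over whole transcripts, Prkaa1 and Prkaa2 were the only 1 of the 45 pairs of the 10 genes that shared a run of 25 bases, and no pair shared one in the last 500 bases, where 3′-end reads fall. Reads of the isoforms can therefore be told apart there. Genes annotated on the opposite strand of the members held few reads, 39 over all 14 mice for Cbarp beside Stk11, 20 for Gm15938 beside Prkaa1 and 0 for the others.

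The levels of the 10 genes spanned a wide range, and 1 isoform held most of the reads of each subunit class. Prkaa2 averaged 194 CPM ± 28.9 (SD, n = 14) and Prkab2 178 ± 72.1, at percentiles 96.3 (Prkab2) and 96.7 (Prkaa2) of tested genes. Prkag3 averaged 82.8 ± 30.5, Stk11 62.5 ± 7.08, Nuak1 36.9 ± 13.6 and Prkag1 15.3 ± 4.89. Prkaa1 averaged 7.60 ± 1.75, Sik1 4.42 ± 2.55, Prkab1 4.05 ± 1.66 and Prkag2 3.14 ± 1.79. Neighbours in this order were not all apart. Prkaa2 lay above Prkab2 in 11 of 14 mice, Prkag3 above Stk11 in 9, Sik1 above Prkab1 in 8 and Prkab1 above Prkag2 in 9, and the means of each of these pairs differed by less than the SD of the more variable gene. Prkab2 lay above Prkag3 and Nuak1 above Prkag1 in 14 of 14 mice. The 4 genes of lowest level rested on few reads, 19 to 61 per mouse for Prkaa1, 8 to 31 for Prkab1, 5 to 31 for Prkag2 and 1 to 41 for Sik1, so only large differences could be detected in them.

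**Figure D1:**
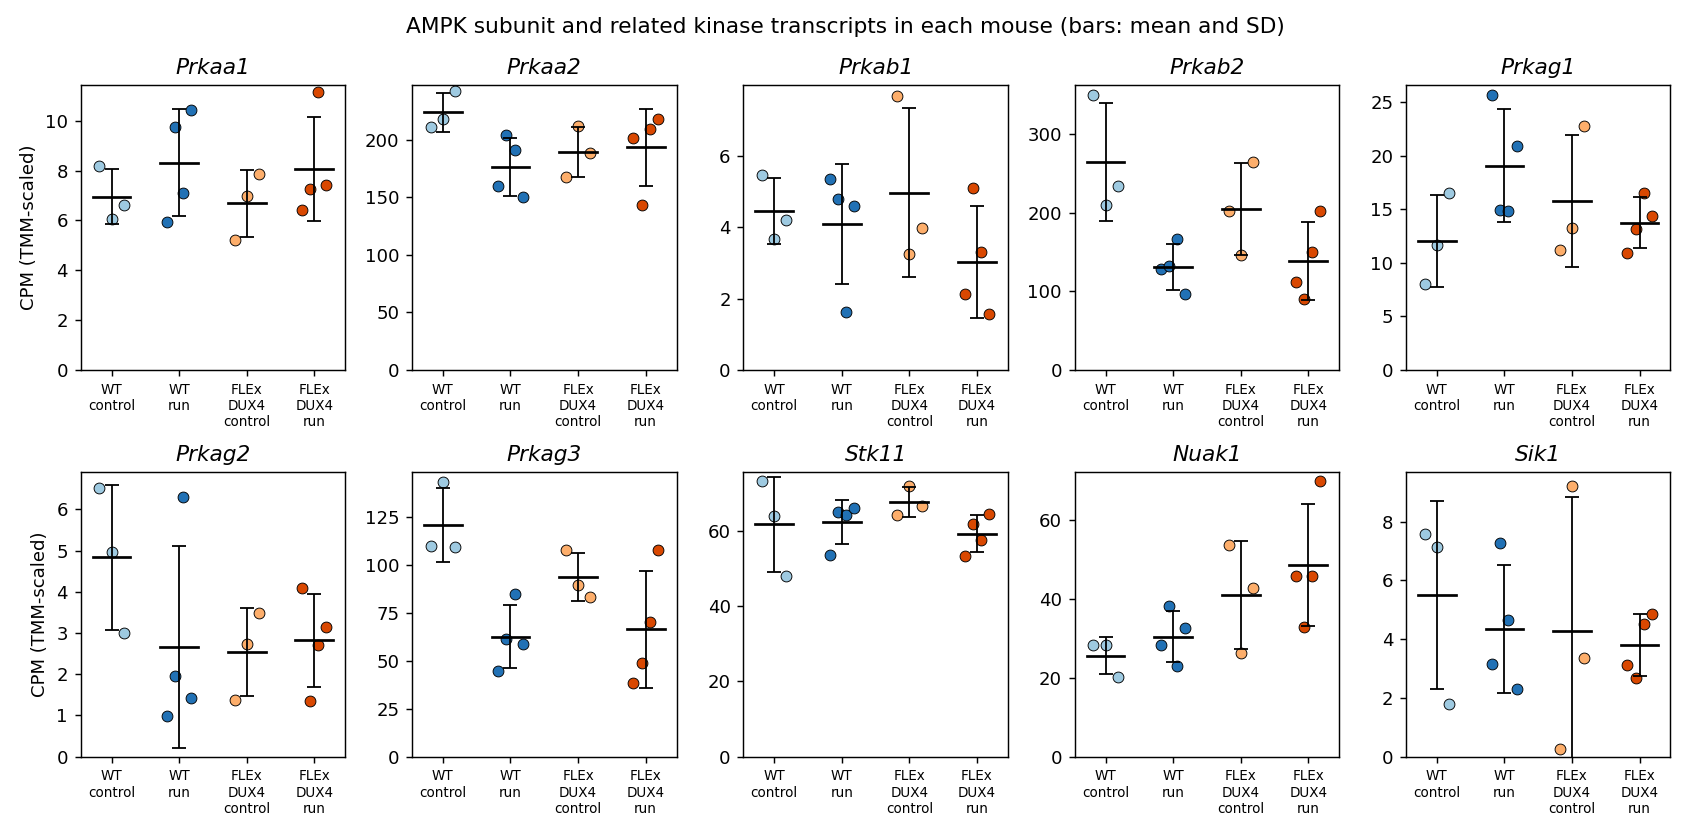
Level of each of the 10 genes (y axis, CPM scaled with TMM factors, a separate scale from 0 for each gene) in the 4 groups, with a point for each mouse and a bar for the group mean and SD. Prkab2 and Prkag3 of WT runners all lie under those of WT controls, FLExDUX4 running 4 stands at the top of its group for both genes, and 1 FLExDUX4 control has Sik1 at 0.274 CPM.

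Running in WT mice was compared first, between 4 runners and 3 controls. The beta2 and gamma3 transcripts showed the largest differences of the 10, both lower in runners, but no member passed the test over all genes. Prkab2, which encodes the beta2 scaffold, stood at 349.8, 209.8 and 235 CPM in WT controls and at 129, 133, 167 and 96.4 in WT runners. Every WT runner lay under every WT control. In whole muscle, fewer fibres of a type and less RNA per fibre cannot be told apart. The log2 fold change (runners over controls) was -1.01 ± 0.30 (SE), a ratio of 0.496, with a 95% interval of -1.66 to -0.37 and an edgeR quasi-likelihood adjusted p of 0.185 (Benjamini-Hochberg over 11088 genes).

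Prkag3, the gamma3 subunit gene, stood at 110.0, 143 and 109.5 CPM in WT controls and at 44.9, 61.4, 84.7 and 58.9 in WT runners, again with no overlap. Its log2 fold change was -0.95 ± 0.30, a ratio of 0.516, with a 95% interval of -1.59 to -0.32 (edgeR adjusted p = 0.21). Prkaa2, the alpha2 catalytic subunit gene, stood at 211, 218 and 243 CPM in WT controls and at 159.7, 204, 191 and 150.4 in WT runners. The groups did not overlap, although 1 runner came close to the lowest control, and the log2 fold change was -0.34 ± 0.15 (edgeR adjusted p = 0.39).

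Prkag1, the gamma1 subunit gene, went the other way. It stood at 7.99, 11.7 and 16.5 CPM in WT controls and at 25.7, 14.9, 14.8 and 20.9 in WT runners, so that the highest control lay above 2 of the 4 runners. Its log2 fold change was 0.68 ± 0.30 (edgeR adjusted p = 0.39). The kinases outside the heterotrimer had log2 fold changes of 0.01 ± 0.16 for Stk11, 0.25 ± 0.24 for Nuak1 and -0.36 ± 0.60 for Sik1. Those of the low subunit genes were 0.26 ± 0.35 for Prkaa1, -0.12 ± 0.52 for Prkab1 and -0.87 ± 0.61 for Prkag2. These 6 genes had edgeR adjusted p values of 0.68 to 0.99.

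In all, edgeR called 0 of the 10 members for running in WT, where 0.496% of all tested genes were called. At an unadjusted p under 0.05 it held 4 of 10, against 10.7% of all tested genes. Prkab2, Prkag3 and Prkaa2 were the 3 members whose runners all lay under the controls, against 4.56% of tested genes. The median log2 fold change was -0.23 over the members and 0.01 over all tested genes. Calls of Prkab2 and Prkag3 depended on the test. DESeq2 on the same counts called both, with 204 of all 52550 genes, and limma-voom called neither, with 23 of 11088. Without FLExDUX4 running 4, a library that is in neither group, edgeR called Prkag3 (log2 fold change -0.95, adjusted p = 0.0094) and did not call Prkab2 (-1.01, adjusted p = 0.054). That library enters through the shared estimate of spread, the scaling and the filter, which left 10983 tested genes without it. With library sizes taken from the spike-ins, the median log2 fold change of all genes was 0.38, and 606 of 11272 genes were called. Prkag1 was the 1 member called in that fit (1.06, edgeR adjusted p = 0.04). The values of Prkab2 and Prkag3 were -0.64 and -0.62, and Prkaa2 came out at 0.01.

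The authors' deposited table, made with DESeq2 per the submitters' processing notes, gave log2 values of WT controls over WT runners. Its values and SEs for the members were smaller in size than those of edgeR, mostly so for genes of few reads. Prkag2 stood at 0.41 ± 0.28 there, against -0.87 ± 0.61 for runners over controls with edgeR. The reason was not tested, and the sizes should not be compared directly. In the authors' deposited table Prkab2 stood at 0.87 ± 0.19 (SE) with an adjusted p of 0.00116, and Prkag3 at 0.77 ± 0.22 with an adjusted p of 0.01. Those were the 2 members under 0.05 in that comparison of the authors' deposited table, and Prkaa2 followed at 0.32 with an adjusted p of 0.0879. It gave no adjusted p there for 5 of the 10 members, Prkaa1, Prkab1, Prkag1, Prkag2 and Sik1. Of these, Prkag1 had an unadjusted DESeq2 p of 0.0267.

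Running in FLExDUX4 mice gave smaller estimates for the same 2 genes. Prkab2 stood at 203, 147 and 264 CPM in FLExDUX4 controls and at 111, 90.2, 149.9 and 203 in FLExDUX4 runners. Replicate 4 of the runners was level with a control and another runner lay above the lowest control, so the groups overlapped, and the log2 fold change was -0.56 ± 0.30 (edgeR adjusted p = 0.81). Prkag3 stood at 108, 89.8 and 83.5 CPM in FLExDUX4 controls and at 38.5, 49, 70.5 and 108 in FLExDUX4 runners. There, 3 of 4 runners lay under all controls and replicate 4 was level with the highest control, and the log2 fold change was -0.49 ± 0.30 (edgeR adjusted p = 0.83). Prkaa2 stood at 168, 212 and 189 CPM in FLExDUX4 controls and 202, 144, 209.9 and 218 in FLExDUX4 runners, a log2 fold change of 0.03 ± 0.15 (edgeR adjusted p = 0.99).

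Prkag1 stood at 11.2, 13.2 and 22.8 CPM in FLExDUX4 controls and at 10.9, 13.2, 16.6 and 14.4 in FLExDUX4 runners, with a log2 fold change of -0.22 ± 0.29. The other 6 members had log2 fold changes of -0.73 ± 0.53 for Prkab1 to 0.25 ± 0.24 for Nuak1. In FLExDUX4 mice edgeR called 0 of the 10 members, where 0% of tested genes were called, and 0 members had an unadjusted p under 0.05, against 6.66% of all tested genes. DESeq2 and limma-voom also called 0 members. With 1 mouse left out, the log2 fold change of Prkab2 ran from -0.81 without FLExDUX4 running 4 to -0.33 without FLExDUX4 control 3, and that of Prkag3 from -0.84 without FLExDUX4 running 4 to -0.29 without FLExDUX4 running 1. Neither was called in any of these fits. The difference between the running effects of the genotypes, FLExDUX4 minus WT, was 0.45 ± 0.42 for Prkab2, 0.47 ± 0.42 for Prkag3, 0.37 ± 0.21 for Prkaa2 and -0.90 ± 0.41 for Prkag1. Of the 10 members edgeR called 0 in that test, against 0% of all tested genes, and the 1 with an unadjusted p under 0.05 was Prkag1, against 4.84% of tested genes (edgeR adjusted p = 0.95). DESeq2 and limma-voom called 0 as well, so a different response of Prkab2 or Prkag3 in the genotypes was not detected, with 95% intervals of -0.47 to 1.37 and -0.44 to 1.38.

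Averaged over genotype, running went with a log2 fold change of -0.79 ± 0.21 for Prkab2 (95% interval -1.24 to -0.33, edgeR adjusted p = 0.111) and of -0.72 ± 0.21 for Prkag3 (95% interval -1.17 to -0.27, edgeR adjusted p = 0.134). Of the 10 members edgeR called 0, where 0.857% of all tested genes were called, and Prkab2 and Prkag3 were the 2 with an unadjusted p under 0.05, against 12% of tested genes. DESeq2 and limma-voom each called both, with 267 of all 52550 and 70 of 11088 genes. So did edgeR without FLExDUX4 running 4, at -0.91 for Prkab2 (adjusted p = 0.012) and -0.90 for Prkag3 (adjusted p = 0.00036). The comparison of running in WT, that in FLExDUX4 and this average share their mice and do not count as separate evidence.

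**Figure D2:**
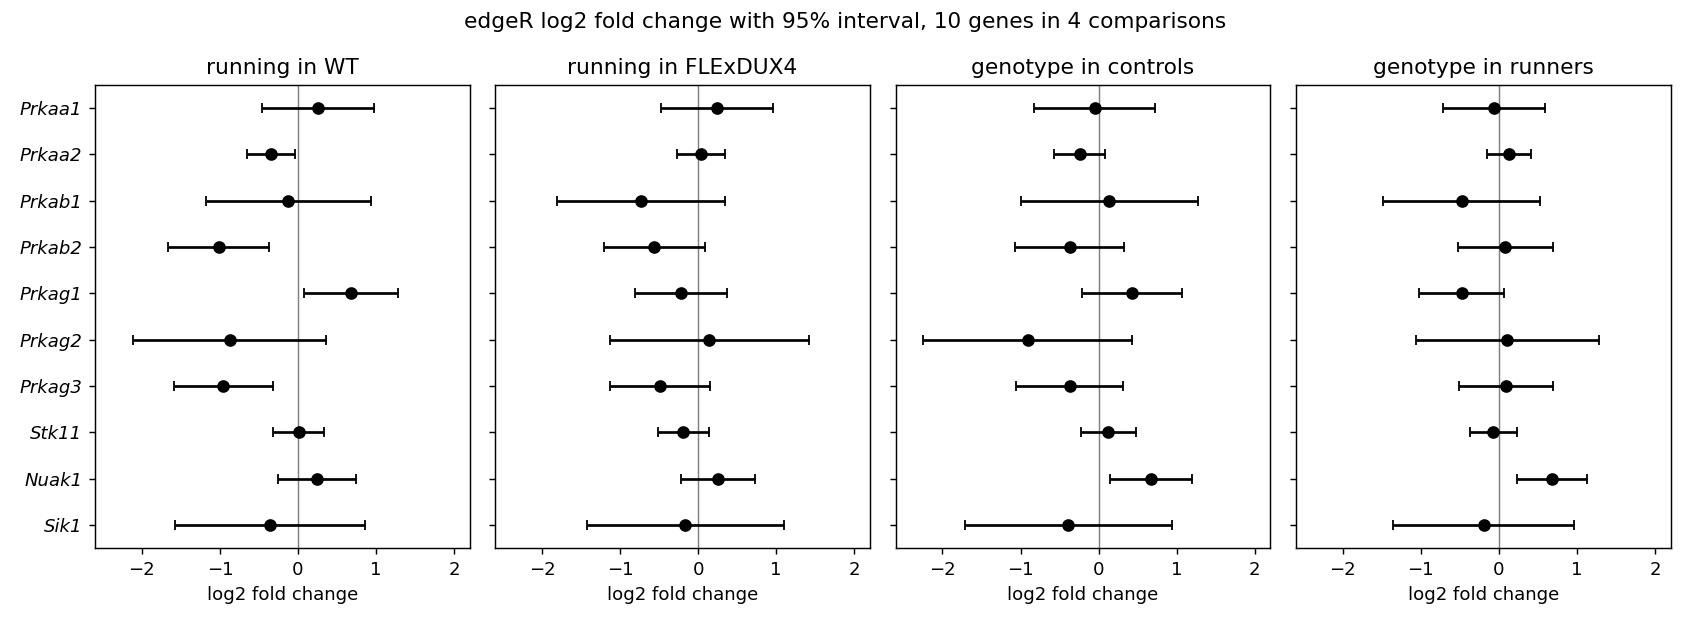
Log2 fold change of each of the 10 genes from the edgeR fit (x axis, point) with its 95% interval (bar) for running in each genotype and for genotype in controls and in runners. For running in WT the intervals of Prkab2, Prkag3 and Prkaa2 lie under 0 and that of Prkag1 above it, for genotype the intervals of Nuak1 lie above 0 in controls and in runners, and none of these passed adjustment over all genes.

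Of the 45 pairs of members, Prkab2 and Prkag3 had the most similar pattern over the mice, with a Pearson r of 0.79 of log2 CPM over 14 mice that share libraries and groups. For this pair the 300 bases around their RefSeq start sites are shown (250 before and 50 after, GRCm38.p6, 5′ to 3′ on the gene's strand), a choice made after their values were seen. The Prkag3 window was chr1:74748906-74749205 on the minus strand, with the E-box CAGCTG, a motif added after the data were seen, in capitals. The Prkab2 window was chr3:97657962-97658261 on the plus strand, with the GC box GGGCGG in capitals, on either strand.
Prkag3: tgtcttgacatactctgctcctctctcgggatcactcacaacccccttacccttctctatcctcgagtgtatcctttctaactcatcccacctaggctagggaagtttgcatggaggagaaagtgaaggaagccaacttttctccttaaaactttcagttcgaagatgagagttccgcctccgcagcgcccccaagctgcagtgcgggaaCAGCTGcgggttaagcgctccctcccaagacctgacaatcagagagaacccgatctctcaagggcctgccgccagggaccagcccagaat
Prkab2: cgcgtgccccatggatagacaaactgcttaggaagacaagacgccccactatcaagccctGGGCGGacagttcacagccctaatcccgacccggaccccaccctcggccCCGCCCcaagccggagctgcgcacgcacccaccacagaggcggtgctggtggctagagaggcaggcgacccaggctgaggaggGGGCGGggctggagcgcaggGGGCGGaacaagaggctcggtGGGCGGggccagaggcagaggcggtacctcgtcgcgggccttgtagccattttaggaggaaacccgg
Prkag3 held 1 CAGCTG, which 16.3% of 32851 RefSeq promoter windows held on either strand, and no GC box. Prkab2 held 5 GC boxes and no CAGCTG, and 35.7% of all windows held a GC box. Neither window held the cAMP response element TGACGTCA (1.79% of all windows), its core TGACG (20.8%), the E-box CACGTG (7.15%) or the oestrogen-related receptor element TCAAGGTCA (0.423%). The core lies within the full cAMP response element. GC content was 54% for Prkag3, close to the median of 52.7% over all windows, and 68% for Prkab2. A promoter window was found for 9 of the 10 genes. The core TGACG was found in those of Prkaa2, Stk11 and Prkag1, once in each.

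The make-up of the heterotrimer transcripts was then set out as the share of each isoform in the reads of its class per mouse, which needs no scaling between libraries. In WT controls Prkaa2 held 97.0% ± 0.618 (SD, n = 3) of alpha reads and Prkab2 98.3% ± 0.119 of beta reads. Over the 4 groups these shares stayed between 95.4% and 97.0% for Prkaa2 and between 96.8% and 98.3% for Prkab2. The gamma class was the most mixed. Prkag3 held 88.3%, 89.6% and 84.8% of gamma reads in WT controls and 62.7%, 78.5%, 80.0% and 72.5% in WT runners. All WT runners lay under all WT controls, and the lowest, replicate 1, had a 95% Wilson interval of 57.6% to 67.5%, which covers counting error only. In FLExDUX4 mice the Prkag3 share was 89.5%, 84.9% and 76.1% in controls and 72.0%, 77.1%, 78.5% and 86.0% in runners, where the groups overlapped.

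The Prkag3 share was 14.2 percentage points lower in WT runners than in WT controls by means, 73.4% ± 7.85 against 87.6% ± 2.46 (2-sided exact permutation p = 0.0571). In FLExDUX4 mice the difference was -5.10 points (exact permutation p = 0.343), and averaged over genotype it was -9.63 points (exact permutation p = 0.0196). The Prkag1 share went the other way. It was 8.85% ± 3.47 of gamma reads in WT controls and 23.7% ± 9.46 in WT runners. That is 14.8 points more (exact permutation p = 0.0571), and averaged over genotype 9.20 points more (exact permutation p = 0.0294). Fewer reads of an isoform raise the shares of the others in its class. The tests of the Prkag1 and Prkag3 shares are therefore not separate evidence. In CPM, Prkag3 averaged 120.9 in WT controls and 62.5 in WT runners, and Prkag1 averaged 12.1 and 19.1. Over all 30 share tests the smallest adjusted p was 0.348, so no share passed, with 35 arrangements of 4 mice against 3. Prkag2 held 2.30% to 3.82% of gamma reads in the 4 groups by means.

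**Figure D3:**
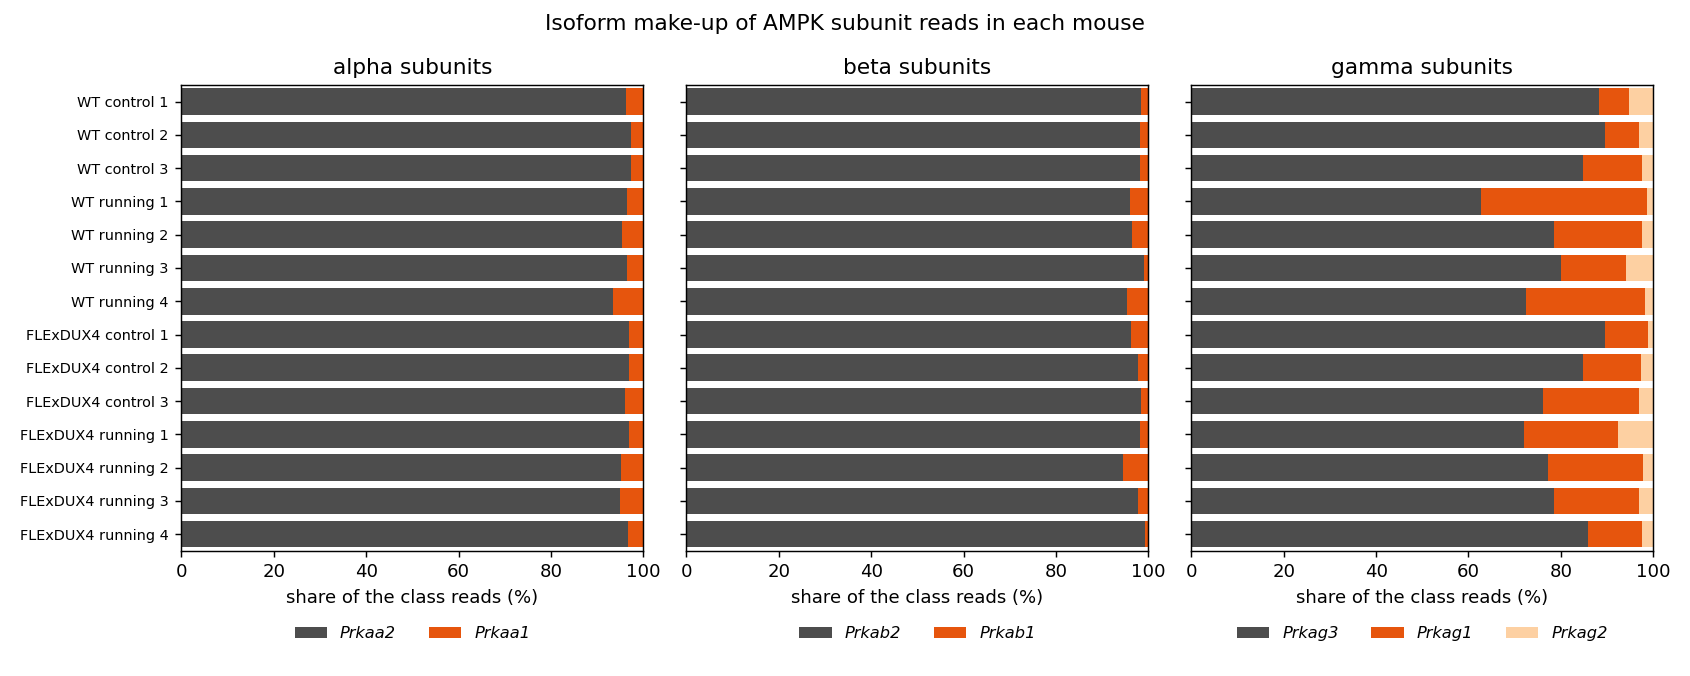
Share of each isoform in the summed reads of the alpha, beta and gamma classes (x axis, percent) in each of the 14 mice (rows). Prkaa2 and Prkab2 fill nearly all of their classes in every mouse, while the Prkag3 share of gamma reads runs from 62.7% in WT running 1 to 89.6% in WT control 2.

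Myosin make-up is given beside these genes, since it moved with them. Myh4, the fast IIb myosin heavy chain, took 98.6% ± 0.256 (SD, n = 3) of the reads of the 4 adult myosins Myh7, Myh2, Myh1 and Myh4 in WT controls, 82.7% ± 11.2 (n = 4) in WT runners, 94.6% ± 1.37 (n = 3) in FLExDUX4 controls and 84.9% ± 10.7 (n = 4) in FLExDUX4 runners. The FLExDUX4 runner with the highest Prkab2 and Prkag3, replicate 4, had 96.5%, above every other runner. The WT runner with the highest Prkab2 and Prkag3, replicate 3, had 94.9%, the highest of its group. Myh1, another fast myosin heavy chain, averaged 438 CPM in WT controls, 2633 in WT runners, 1206 in FLExDUX4 controls and 2365 in FLExDUX4 runners. Means of the slow myosin Myh7, in the same order, were 2.28 ± 1.74, 17.8 ± 19.2, 15.9 ± 17.7 and 26.9 ± 20.1 CPM. The Myh2 level is not reported here. The summed level of 8 slow fibre markers, none of them at 0 in any group, was 31.6 to 49 CPM in WT controls, 46.5 to 609 in WT runners, 160.5 to 453 in FLExDUX4 controls and 33.8 to 783 in FLExDUX4 runners.

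Across the 14 mice, log2 of Prkag3 CPM (plus 1) rose with the Myh4 share with a Pearson r of 0.865 (permutation p = 7e-05, adjusted p = 0.001 over 20 relations) and a Spearman rho of 0.943 (permutation p = 1e-05, the smallest that 100000 permutations can give). Without the 2 mice farthest from the median share, WT running 1 and FLExDUX4 running 2, r was 0.838. For Prkab2 r was 0.833 (permutation p = 0.0001, adjusted p = 0.001) and rho 0.890 (permutation p = 8e-05), and r was 0.860 without those 2 mice. Prkaa2 had an r of 0.791 (permutation p = 0.00164, adjusted p = 0.0109) and a rho of 0.736 (permutation p = 0.00339), with an r of 0.612 without the 2 mice.

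These relations mix the groups with the spread inside them, so they were also computed in the 8 runners alone. There r was 0.838 for Prkab2 (permutation p = 0.0107, adjusted p = 0.0357), 0.881 for Prkaa2 (permutation p = 0.00829, adjusted p = 0.0332) and 0.772 for Prkag3 (permutation p = 0.0269, adjusted p = 0.0605). Spearman's rho in the runners was 0.833 for Prkab2 (permutation p = 0.0152, adjusted p = 0.0465). It was 0.762 for Prkaa2 (permutation p = 0.0366, adjusted p = 0.0747) and 0.833 for Prkag3 (permutation p = 0.0154, adjusted p = 0.0465). Without the 2 farthest mice r in the remaining runners was 0.961 for Prkab2, 0.769 for Prkaa2 and 0.721 for Prkag3. Prkag2 had an r of 0.687 over 14 mice (permutation p = 0.00713, adjusted p = 0.0332) and a rho of 0.640 (permutation p = 0.0163), with an r of 0.481 without the 2 mice, so that it rested in part on those. In the other members r over 14 mice lay between -0.438 for Prkag1 (permutation p = 0.118, rho -0.363, permutation p = 0.201) and 0.251 for Stk11 (permutation p = 0.394, rho 0.191, permutation p = 0.513). In the 8 runners Prkab1 went the opposite way, with an r of -0.801 (permutation p = 0.0272, adjusted p = 0.0605) and a rho of -0.833 (permutation p = 0.0155, adjusted p = 0.0465), against an r of -0.223 over 14 mice (permutation p = 0.445). Without the 2 farthest mice its r in the runners was -0.669. In the runners r was 0.797 for Prkag2 (permutation p = 0.0206, adjusted p = 0.0588) and 0.746 for Sik1 (permutation p = 0.038, adjusted p = 0.076), and it lay between -0.427 and 0.405 for Prkaa1, Prkag1, Stk11 and Nuak1, with permutation p values of 0.295 to 0.637. These relations were chosen after the data were seen, and the part of fibre type in the running comparison was not tested.

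**Figure D4:**
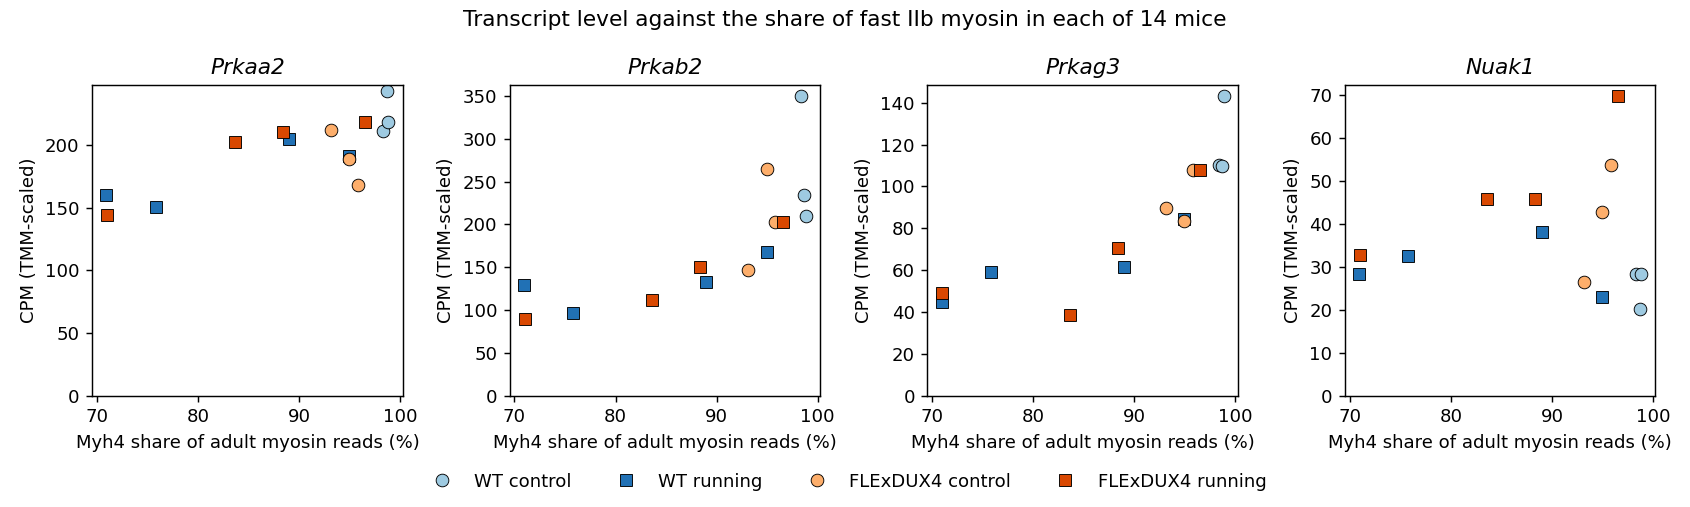
Level of Prkaa2, Prkab2, Prkag3 and Nuak1 (y axis, CPM scaled with TMM factors) against the share of Myh4 in adult myosin reads (x axis, percent) in each of 14 mice, with circles for controls and squares for runners. Prkab2 (r = 0.833) and Prkag3 (r = 0.865) tend to be higher where the Myh4 share is higher, with mice out of order such as FLExDUX4 running 1, which has the lowest Prkag3 (38.5 CPM) at a share of 83.6%, and Nuak1 has an r of 0.016.

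Genotype was compared in controls, in runners and averaged over running. Nuak1, which encodes the LKB1-activated kinase NUAK1 (ARK5), had higher mean levels in FLExDUX4 mice than in WT mice, in controls and in runners. It stood at 28.4, 28.3 and 20.2 CPM in WT controls and at 53.8, 26.4 and 42.8 in FLExDUX4 controls. In runners it stood at 28.3, 38.2, 22.9 and 32.6 CPM in WT and at 45.9, 32.8, 45.8 and 69.8 in FLExDUX4. The genotypes overlapped in both cases, through FLExDUX4 control 2 and FLExDUX4 running 2. The log2 fold change, FLExDUX4 over WT, was 0.67 ± 0.26 in controls (edgeR adjusted p = 0.969), 0.68 ± 0.22 in runners (edgeR adjusted p = 0.999) and 0.67 ± 0.17 averaged over running (95% interval 0.33 to 1.02, edgeR adjusted p = 0.837). By p, Nuak1 ranked at place 4 of 11088 genes in the averaged comparison and at place 18 in runners. Its estimate stayed between 0.56 and 0.79 when any 1 mouse was left out. The summed level of 6 fibroblast markers, none at 0 in any group, was 877 to 1309 CPM in WT controls, 910.1 to 1135 in WT runners, 920.4 to 1184 in FLExDUX4 controls and 1031 to 1370.4 in FLExDUX4 runners, and its part in the Nuak1 values was not tested.

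In controls, Prkag3 was the 1 member whose FLExDUX4 mice all lay under the WT mice, against 5.47% of tested genes, with a log2 fold change of -0.37 ± 0.32 (edgeR adjusted p = 0.99). Nuak1 was the 1 member at an unadjusted p under 0.05 in each of the genotype comparisons, against 5% of tested genes in controls, 3.16% in runners and 3.77% for the average. Of the 10 members edgeR called 0 in controls, 0 in runners and 0 for the average, and 0% of tested genes were called in each. DESeq2 and limma-voom also called 0 members in each. Without the filter on low counts, edgeR called Nuak1 for the average (0.67, adjusted p = 0.0133), with 8 of 20938 genes called in all. In the authors' deposited table, Nuak1 was under 0.05 in 1 comparison, FLExDUX4 runners over WT controls, which changes genotype and running at once (0.77 ± 0.21, adjusted p = 0.0204). There the authors' deposited table also had Prkab2 at -0.80 ± 0.19 (adjusted p = 0.00624) and Prkag3 at -0.69 ± 0.22 (adjusted p = 0.0581). In that comparison too, 5 of the 10 members had no adjusted p.

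Stk11, the upstream kinase gene, was the steadiest of the related kinases, with group means of 61.8 ± 12.7 CPM in WT controls, 62.3 ± 5.82 in WT runners, 67.6 ± 4.03 in FLExDUX4 controls and 59.3 ± 4.97 in FLExDUX4 runners. Its log2 fold changes lay between -0.19 ± 0.16 for running in FLExDUX4 and 0.13 ± 0.17 for genotype in controls. Sik1 was among the most variable members. It stood at 7.57, 7.13 and 1.81 CPM in WT controls, at 3.17, 7.28, 4.67 and 2.30 in WT runners, at 0.274, 9.23 and 3.34 in FLExDUX4 controls and at 3.11, 2.69, 4.52 and 4.85 in FLExDUX4 runners. All groups overlapped, and the value of FLExDUX4 control 1 was a single read. Its estimated biological coefficient of variation was 0.501, against 0.164 for Stk11, 0.163 for Prkaa2 and 0.288 over all genes. Without single mice its log2 fold change for running in FLExDUX4 ran from -0.68 to 0.93, so no direction can be given for it.

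Around the members, 6 lists held 62 genes of the pathway, of which 54 were tested. Of these, edgeR called 0 for running in WT, in FLExDUX4 and for genotype in controls, in runners and on average, and 1 for running averaged over genotype. The share of all tested genes called was 0.496% for running in WT, 0.857% for running averaged over genotype and 0% in the others. At an unadjusted p under 0.05 the list genes numbered 7 of 54 for running in WT (10.7% of all tested genes), 10 in FLExDUX4 (6.66%), 3 for genotype in controls (5%), 3 in runners (3.16%), 4 on average (3.77%) and 12 for running averaged over genotype (12%). DESeq2 and limma-voom each called 1 list gene for running in WT, and for running averaged over genotype they called 4 and 1, with 0 for the other comparisons. The called gene was Cd36, which encodes a fatty acid transporter, in the list of muscle genes known to be raised by AMPK activation. It averaged 55.3 ± 5.61 CPM in WT controls, 144 ± 45.7 in WT runners, 78.6 ± 13.2 in FLExDUX4 controls and 145 ± 53.7 in FLExDUX4 runners, a log2 fold change of 1.13 ± 0.23 for the average (edgeR adjusted p = 0.0452). That call was lost in 12 of 14 fits that left out 1 mouse, all but those without FLExDUX4 running 4 or WT running 3, with log2 fold changes of 1.02 to 1.23 and adjusted p values of up to 0.135 over the 14 fits. It was also lost with a filter of 1 CPM in 3 libraries (edgeR adjusted p = 0.0546) and held in 9 of 10 alternatives that kept every mouse. Those 9 include the looser threshold of 0.10 on the same fit, where the call could not be lost. Cd36 is also expressed by endothelial cells, and the summed level of 7 endothelial markers, none of them at 0 in any group, was 97.2 to 108 CPM in WT controls, 172 to 246 in WT runners, 133 to 156 in FLExDUX4 controls and 102 to 210 in FLExDUX4 runners. Its part in the result was not tested.

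The list of muscle genes raised by AMPK activation had 9 tested genes, 9 of them above 0 for running in WT (median log2 fold change 0.31), 6 for running in FLExDUX4 (0.18) and 8 for running averaged over genotype (0.20), against a median of 0.01 over all tested genes in each. Its Ppargc1a, the coactivator PGC-1alpha, was at 0.44 ± 0.19 for running in WT (edgeR adjusted p = 0.364) and was not called. Among the 16 tested AMPK substrates 4 lay above 0 for running averaged over genotype, with a median of -0.05, and the smallest p belonged to Fnip1, a folliculin partner (-0.40 ± 0.12, edgeR adjusted p = 0.0852, not called). Of the 7 tested other AMPK-related kinases 3 lay above 0 in that comparison, and Mark2, a microtubule affinity-regulating kinase, came closest to the threshold (-0.68 ± 0.19, edgeR adjusted p = 0.066, not called). Mark2 averaged 16.9 ± 2.45 CPM in WT controls, 11.6 ± 0.734 in WT runners, 16.2 ± 3.69 in FLExDUX4 controls and 9.19 ± 0.608 in FLExDUX4 runners. The 6 tested LKB1 partners and upstream kinases had 2 genes above 0 and a median of -0.06, and the 7 SIK substrates had 3 above 0 and a median of -0.05. The 10 cAMP response element genes had 2 above 0 and a median of -0.71, with Per1, a clock gene, at -1.45 ± 0.51 (edgeR adjusted p = 0.246, not called). These medians stand beside 0.01 over all tested genes.

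The genes whose levels over the 14 mice were most like those of a member were read as a description, by Pearson r of log2 CPM over 11088 genes. For Prkab2 they were Phka1, the muscle alpha subunit of phosphorylase kinase (r = 0.968), Jarid2 (0.948) and mt-Tt, a mitochondrial transfer RNA (0.938). Prkag3 came closest to Tpm1, an alpha tropomyosin (0.942), Ampd1, the muscle AMP deaminase (0.907), and Tmem233 (0.900). For Prkaa2 the closest were Triobp (0.887), Cib2 (0.868) and Rnf11 (0.859). Prkag2 came closest to Slc38a4 (0.900), Slc16a3, the lactate transporter MCT4 (0.872), and Tpi1, triosephosphate isomerase (0.853).

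Nuak1 was most like Igfn1 (0.819), Gm24601 (0.801) and Tmem39b (0.780), and Stk11 like Pdzrn4 (0.886), Zgpat (0.796) and Mycbp (0.781). Sik1 was most like Dolpp1 (0.925), Ppp1r3c, a glycogen-targeting subunit of protein phosphatase 1 (0.883), and Pnp (0.867). The closest gene to Prkab1 was Pcnx (0.861) and that to Prkag1 was Pttg1 (0.834). These coefficients share the mice, the library depth and the group structure of the design. Each is also among the highest of 11088 genes over only 14 mice, where high values can arise for unrelated genes. How high such values run was not tested.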

How the data were processed

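Triceps RNA of 14 male mice was measured as QuantSeq FWD 3′-end libraries, per the labels' protocols. The authors deposited raw read counts per gene and spike-in, with the log2 fold changes, p-values and adjusted p-values of their 6 group comparisons in the same table. The standard error and Wald score that the authors deposited beside each log2 value are DESeq2 output. Per the submitters' processing notes, the tools were STAR 2.5.3a, featureCounts 1.6.2 (Subread), cutadapt 1.16, FastQC 0.11.7 and DESeq2, with builds GRCh38 and GRCm38. Which annotation release, strand setting and treatment of multiply aligned reads were used is not given in the sources used here, so reads of a gene and of one on its opposite strand may not be told apart.

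The 99 spike-ins were set aside. Counts of the 52550 genes were scaled with TMM and filtered with filterByExpr (minimum count 10), and 1 robust quasi-likelihood fit in edgeR 4.0.16 (R 4.3.3) covered all 14 libraries, with 1 mean per group and 7 contrasts. P-values were adjusted by Benjamini-Hochberg over 11088 genes, with a threshold of 0.05. 1 CPM stood for 3.32 to 7.77 reads. Intervals on shares cover counting error only. Per-mouse shares were compared with 2-sided exact permutation tests. The fit was also tested on simulated counts, with 1 spread shared by all genes and changes in WT runners alone. Spreads that differ between genes, as in these data, were not part of that test.

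Replicate numbers follow accession order and do not pair mice. The labels do not say that mice came from separate litters or cages, so p-values measure the spread between these mice. The text names all 10 members, list genes called (at most 4 per list and comparison) or the uncalled ones of smallest p, and the 3 genes most like each member (1 for Prkab1 and Prkag1; that for Prkaa1 is not reported here). Members and lists were chosen with earlier results of these data known. Alternatives were DESeq2 1.42.0, limma-voom (limma 3.58.1), RLE and upper quartile factors, spike-in library sizes, a fit of the compared pair of groups alone, other filters, a threshold of 0.10, a fit without robust estimates, counts without mitochondrial genes and Gm42418, and leaving out single mice. They were applied to Cd36 after the data were seen. Protein sequences were not used here.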

Additional observations from a re-analysis of the deposited data

Results flagged for a closer look

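Among 30 groups of 4 runners tested for a mouse far from the others (10 genes and 5 shares in each genotype), 2 held one, and chance gives about 1 in 20. In WT runners the Stk11 level of replicate 1 was 53.6 CPM, below the other 3 at 64.4 to 66.2. In FLExDUX4 runners the Prkag2 share of gamma reads in replicate 1 was 7.64% (95% Wilson interval 5.05% to 11.4%, 21 reads of 275), above the other 3 at 2.12% to 3.02%.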

How the results depend on the processing

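Depth limited Prkaa1, Prkab1, Prkag2 and Sik1, with at most 61 reads per mouse. No paired analysis was possible because replicate numbers only follow accession order. Of the 10 members, edgeR called 0 as reported. For running in WT it called 1 with spike-in library sizes, 2 without the low-count filter, 1 without the robust estimate, 2 with only the 2 groups compared, and DESeq2 called 2. For running averaged over genotype the counts were 2 without the filter, 2 without the robust estimate, 2 with limma-voom and 2 with DESeq2, and for genotype averaged over running 1 without the filter. With 1 mouse left out the counts ran from 0 to 1 for running in WT and from 0 to 2 for running averaged over genotype, the higher ones without FLExDUX4 running 4. The cause was not tested. The number of all genes called for running in WT was 55 of 11088 as reported and 149 of 11088 at an adjusted p under 0.10. It was 217 of 20938 without the filter, 606 of 11272 with spike-in sizes, 204 of all 52550 with DESeq2 and 23 of 11088 with limma-voom. Without the robust estimate it was 74 of 11088, and with only the 2 groups compared 56 of 10215. Without FLExDUX4 running 4 it was 118 of 10983. For running averaged over genotype the number was 95 as reported and 236 at an adjusted p under 0.10. It was 291 without the filter, 434 with spike-in sizes, 267 with DESeq2 and 70 with limma-voom, of the same totals. Without the robust estimate it was 120 of 11088. For genotype averaged over running, 8 of 20938 genes were called without the filter. With 1 mouse left out, the counts for running in WT ran from 0 (without WT control 1) to 197 (without WT running 3). Those for running averaged over genotype ran from 17 (without FLExDUX4 control 1) to 286 (without FLExDUX4 running 4).

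With spike-in sizes the median of all genes was 0.38 for running in WT and 0.31 for genotype in controls. It was 0.22 and 0.15 for the averages of running and of genotype, and -0.33 for the difference of running effects. As reported, these medians were 0.014, 0.0023, 0.012, -0.0025 and -0.0071. Under spike-in sizes the sign turned for running in WT in Prkaa2 (0.011) and Prkab1 (0.26). For genotype in controls it turned in Prkaa1 (0.26) and Prkaa2 (0.082), and for running averaged over genotype in Prkaa2 (0.034) and Stk11 (0.11). For genotype averaged over running it turned in Prkaa1 (0.10), Prkaa2 (0.11), Prkab2 (0.0034), Prkag1 (0.10) and Prkag3 (0.024). For the difference of running effects it turned in Nuak1 (-0.27) and Sik1 (-0.17). With limma-voom the sign turned for running in FLExDUX4 Sik1 (0.52), for genotype in controls Prkab1 (-0.013), for running averaged over genotype Sik1 (0.069) and for genotype averaged over running Prkag1 (0.046). For the difference of running effects, Nuak1 came to -0.0025 with RLE factors and -0.0063 with DESeq2, and without mitochondrial genes and Gm42418 Stk11 for running in WT came to -0.00093.

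Leaving out each mouse turned the sign of these log2 fold changes, given as the lowest and highest. For running in WT, the ranges were Prkab1 -0.27 to 0.14 and Stk11 -0.14 to 0.15. For running in FLExDUX4, the ranges were Prkaa2 -0.048 to 0.15, Prkag1 -0.41 to 0.16, Prkag2 -0.13 to 0.46 and Sik1 -0.68 to 0.93. For genotype in controls, the ranges were Prkaa1 -0.19 to 0.10, Prkab1 -0.29 to 0.36, Stk11 -0.018 to 0.27 and Sik1 -1.47 to 0.13. For genotype in runners, the ranges were Prkaa1 -0.24 to 0.069, Prkab2 -0.17 to 0.24, Prkag2 -0.16 to 0.96, Prkag3 -0.25 to 0.29 and Sik1 -0.40 to 0.18. For running averaged over genotype, the ranges were Sik1 -0.52 to 0.28. For genotype averaged over running, the ranges were Prkaa1 -0.15 to 0.020, Prkaa2 -0.095 to 0.0056, Prkag1 -0.22 to 0.12, Prkag2 -0.56 to 0.024 and Stk11 -0.042 to 0.10. For the difference of running effects, the ranges were Prkaa1 -0.20 to 0.13, Nuak1 -0.23 to 0.24 and Sik1 -0.32 to 1.28. Differences of shares, in percentage points, also turned sign when a mouse was left out. For genotype in runners, the ranges were Prkaa2 -0.15 to 0.83 and Prkag2 -0.34 to 1.95. For genotype averaged over running, the ranges were Prkaa2 -0.25 to 0.23, Prkab2 -0.33 to 0.44, Prkag1 -1.91 to 1.77, Prkag2 -0.80 to 0.34 and Prkag3 -1.35 to 2.29. For running in FLExDUX4, the ranges were Prkab2 -0.72 to 0.83. For running in WT, the ranges were Prkag2 -1.69 to 0.17. For running averaged over genotype, the ranges were Prkag2 -0.21 to 0.85.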
